A study of Arabidopsis thaliana with 10 samples.

Results

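STZ (AT1G27730, also called ZAT10) and CML38 (AT1G76650) are 2 stress genes of Arabidopsis thaliana. They are 2 of the 13356 genes that have a probe set annotated to them alone on the array used, and each has exactly 1 such probe set. They were chosen by their log2 levels in these same arrays, which were already known to go opposite ways in the ecotypes after 24 h of cold, so their levels and differences are given as a description, without a test. Cold was 4 °C throughout. There were 5 groups with 2 arrays each. The ecotype Col was sampled at room temperature and at 24 h of cold, and the ecotype C24 at room temperature, 3 h and 24 h. Col has no 3 h group. No mutation or transgene is named for any group. All plants were seedlings grown on plates of half-strength salt medium in a chamber at 23 and 18 °C. Sample labels give leaf as the tissue and 20 days as the age, whereas the series text gives 14 days. Replicates are biological per the series text, but no source says whether plants were pooled or at what time of day they were taken.

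STZ encodes a zinc finger protein that binds DNA and carries a short motif through which it represses transcription. Its transcript is known to rise quickly after cold, salt, drought, wounding, touch and strong light. CML38 encodes a small protein related to calmodulin, which binds calcium ions when their level in the cytosol goes up. Transcripts of this kind of calcium sensor are known to respond to touch and wounding, and CML38 also to low oxygen in roots. A brief calcium signal is among the first events in a chilled plant cell.

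All values are the authors' normalised signals on the log2 scale, so a difference of 1 is a 2-fold change. No detection calls were used. Signals below an array's lower quartile (4.48 to 4.52), which may be background, are said to lie in the background range. Control transcripts and tissue markers differed between groups. Spiked-in poly-A controls had mean signals of 6.91 to 7.25 on the C24 arrays and 5.78 to 5.83 on the Col arrays. The 3' minus 5' difference of the GAPDH control, which grows with RNA degradation, was 0.374 to 0.864 on the C24 arrays and 0.0947 to 0.314 on the Col arrays. Of the listed leaf markers, 5 had a named probe set, with linear signals that summed to between 32938 (C24, 24 h) and 47448 (Col, room temperature). Of the listed root markers, 3 had one, and their summed linear signals were 1608 and 1638 on the C24 room temperature arrays, 3147 and 3192 in C24 after 24 h, 4890 and 5141 in Col after 24 h, 5974 and 6063 in C24 after 3 h, and 6891 and 8003 in Col at room temperature. PYK10, with group means of 10.61 to 12.81, dominated these sums, and the other root markers had group means of at most 7.14. The mean log2 signals of the 3 root markers, in the same order of groups, were 6.81, 7.39, 8.10, 7.88 and 8.81. By that measure Col after 24 h lay above C24 after 3 h. None of these markers lay in the background range. EXPA7 came nearest to it, at 4.59 on C24 room temperature replicate 1, where the lower quartile was 4.51. By that bound alone, without detection calls, signals of root marker genes were present beside those of leaf in every group. The part of these array and tissue differences in the values below was not tested. In bulk samples such as these, fewer cells that express a gene and less of its RNA per cell cannot be told apart.

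STZ stood at 6.96 and 6.90 on the Col room temperature arrays and at 9.36 and 9.18 after 24 h of cold. In C24 it stood at 9.35 and 9.32 at room temperature, 9.98 and 10.18 at 3 h of cold, and 8.15 and 8.25 after 24 h. Col was thus low before cold and high after it, while C24 was already high before cold, highest at 3 h and lower at 24 h than before cold. The means were 6.93 ± 0.04 (SD, n = 2) and 9.27 ± 0.13 in Col, and 9.33 ± 0.02, 10.08 ± 0.14 and 8.20 ± 0.07 in C24 in the order above. From the highest level down, the order was C24 at 3 h, C24 at room temperature, Col at 24 h, C24 at 24 h and Col at room temperature. Of these neighbours, C24 at room temperature and Col at 24 h had overlapping arrays, with means 0.06 apart (SE 0.09). The other neighbours did not overlap and lay 0.75 to 1.27 apart.

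CML38 stood at 4.92 and 4.91 on the Col room temperature arrays and at 6.60 and 7.42 after 24 h of cold. In C24 it stood at 5.11 and 5.22 at room temperature, 6.28 and 6.36 after 3 h, and 4.38 and 4.29 after 24 h. Its highest group was therefore Col at 24 h, and in C24 it was high at 3 h and, on each 24 h array, inside the background range. The means were 4.92 ± 0.01 (SD, n = 2) and 7.01 ± 0.58 in Col, and 5.16 ± 0.08, 6.32 ± 0.06 and 4.34 ± 0.06 in C24. In order of level, Col at 24 h led, then came C24 at 3 h, C24 at room temperature, Col at room temperature and C24 at 24 h. The arrays of neighbours in this order did not overlap. The lead of Col at 24 h over C24 at 3 h was 0.69 (SE 0.19), beside an SD of 0.58 within Col at 24 h, and C24 and Col at room temperature were 0.25 apart (SE 0.19).

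The 2 Col 24 h arrays differed by 0.82 for CML38, the widest replicate gap of either gene. For STZ the replicate gaps ran from 0.03 to 0.20. Of all 22746 probe sets tested, 45 had a gap between these 2 Col arrays at least as wide as that of CML38, each of them higher on replicate 2. They included 30 of the 69 named plastid-encoded probe sets, and 62 of these 69 were higher on replicate 2 by any amount. The part of this array difference in the CML38 value was not tested. The difference between cold and room temperature for CML38 in Col was 2.50 without Col 24 h replicate 1 and 1.68 without Col 24 h replicate 2.

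**Figure D1:**
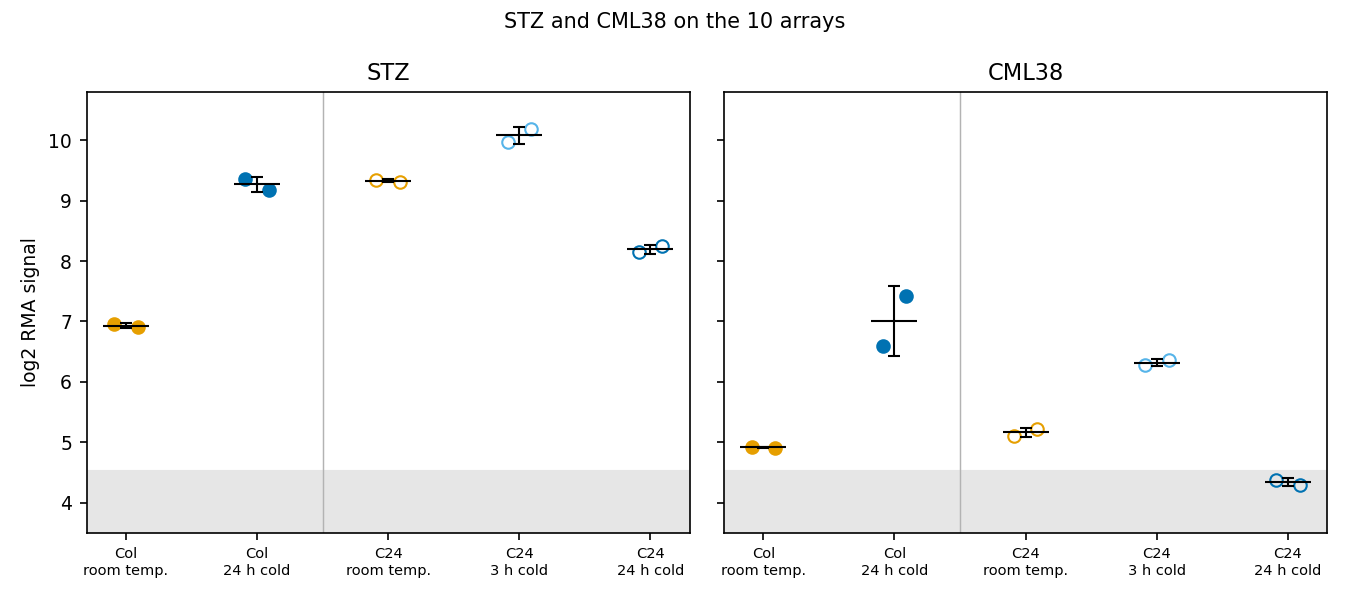
Log2 RMA signal (vertical axis) of STZ and CML38 in the 5 groups (horizontal axis), with filled circles for the 2 Col arrays and open circles for the 2 C24 arrays of a group, and bars for mean and SD. The shaded band is the background range below 4.52. STZ was lowest in Col at room temperature (6.93) and highest in C24 after 3 h (10.08), and CML38 was highest in Col after 24 h (7.01) and in the band in C24 after 24 h (4.34).

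Set side by side, the genes had differences of the same sign under cold in each ecotype, and unlike gaps between the ecotypes before it. After 24 h of cold in Col, STZ was higher by 2.34 (SE 0.09, 5.06-fold) and CML38 by 2.09 (SE 0.19, 4.26-fold). After 3 h of cold in C24, STZ was higher by 0.75 (1.68-fold) and CML38 by 1.15 (2.22-fold). After 24 h in C24, STZ was 1.14 and CML38 0.83 below its own room temperature mean, which makes log2 differences of -1.14 and -0.83. Between 3 h and 24 h in C24, a comparison that does not use the room temperature arrays, the differences were -1.88 (3.69-fold lower) for STZ and -1.98 (3.94-fold lower) for CML38. In each of these comparisons the arrays of the 2 groups did not overlap for either gene. The comparisons within C24 share arrays, so they are not independent of one another.

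The ecotypes differed at room temperature in STZ far more than in CML38. STZ was 5.28-fold higher in C24 than in Col there (9.33 against 6.93), and CML38 by 0.25 (1.19-fold). After 24 h of cold the order was the other way round: the difference, C24 minus Col, was -1.07 for STZ (2.11-fold lower) and -2.67 for CML38 (6.36-fold lower). The difference between the 24 h responses, C24 minus Col, was -3.48 (SE 0.13) for STZ and -2.92 (SE 0.27) for CML38. Which control was used mattered for STZ. Against Col at room temperature, STZ in C24 was higher by 3.15 after 3 h and by 1.27 after 24 h, so at 24 h it stood below its own control and above that of Col. CML38 in C24 lay 1.40 above Col at room temperature after 3 h and had a difference of -0.58 from it after 24 h.

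Profiles most like that of each gene were sought among the 13513 probe sets with 1 gene, by the root mean square difference over the 10 arrays after each profile was centred on its own mean. The profile nearest to STZ was that of AT1G69890, at 0.250, followed by AT1G56300 (0.269), AT3G59350 (0.278), AT5G03120 (0.280) and AT3G51400 (0.357). The median over all profiles was 1.11. AT1G69890 had group means of 5.39 and 7.63 in Col, at room temperature and 24 h. In C24 it stood at 7.96 and 8.04 on the room temperature arrays and had means of 8.99 at 3 h and 6.42 at 24 h. AT5G03120 had means of 5.17 and 7.13 in Col and of 7.26, 7.64 and 6.47 in C24, in the same order. Like STZ, all 5 were lowest in Col at room temperature and highest in C24 at 3 h.

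CML38 had no neighbour as near. The distances are over single arrays, so the gap of 0.82 between its Col 24 h replicates enters them. How much that gap adds was not tested. The least distance was 0.463, for EXO (AT4G08950), whose protein EXORDIUM is known to promote cell expansion downstream of brassinosteroid hormones. AT2G41640 (0.498), AT4G36500 (0.501), AT5G66650 (0.532) and the pectin methylesterase gene ATPMEPCRB (AT4G02330, 0.533) came next, against a median of 1.03. EXO stood at 8.83 and 9.87 in Col, at room temperature and 24 h, and at 8.49, 9.05 and 7.29 in C24, at room temperature, 3 h and 24 h. AT2G41640 stood at 4.52 and 5.74 in Col and at 4.60, 6.44 and 4.12 in C24, and 3 of its 10 array values lay in the background range. Of these 5 genes, AT2G41640 alone was highest in C24 at 3 h, and the other 4 were highest, as CML38 was, in Col at 24 h. STZ and CML38 were not among each other's nearest profiles by this measure. Their distance was 0.921, below the median for either gene. Of 13512 profiles compared, CML38 was the 507th nearest to STZ and STZ the 1187th nearest to CML38.

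**Figure D2:**
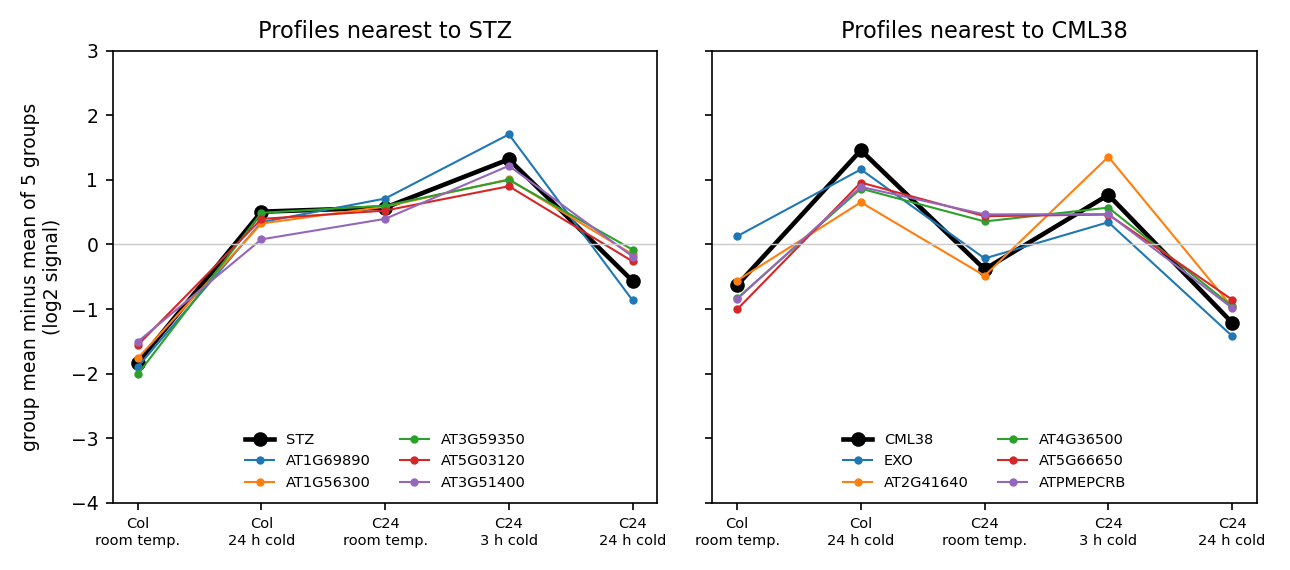
Group means centred on the mean of the 5 groups (log2 signal, vertical axis) by group (horizontal axis), for STZ and CML38 in black and the 5 nearest named profiles of each in colour. The STZ lines run close together, with root mean square distances of 0.250 to 0.357, and the CML38 lines spread more, with 0.463 to 0.533. The distances are over the 10 single arrays, and those of CML38 include its replicate gap in Col at 24 h.

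Calcium sensors other than CML38 were compared next, to see which relatives moved with it. Named probe sets covered 7 of them. CML37 (AT5G42380), a near relative of CML38 that is known to respond to wounding and drought, stood at 3.33 and 3.25 in Col at room temperature and at 5.71 and 5.81 after 24 h of cold. On all 6 C24 arrays it lay between 3.63 and 3.82, inside the background range, as it did in Col at room temperature. It rose in Col by 2.47 (SE 0.08, limma adjusted p = 1.37e-09) and was not called in C24 at 3 h (0.02, limma adjusted p = 0.876) or 24 h (0.08, limma adjusted p = 0.479). After 24 h of cold it was lower in C24 than in Col, with a difference of -2.02 (limma adjusted p = 5.79e-09), and the 24 h responses differed by -2.39 (limma adjusted p = 2.78e-08). CML37 thus shared the high Col level at 24 h with CML38, but at 3 h in C24 it was at 3.68 while CML38 was well above the background range. AT1G76640, which RefSeq lists under the synonym CML39 and places next to CML38 in the genome, lay in the background range on all 10 arrays.

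CML30 (AT2G15680) went another way. It stood at 6.68 and 6.65 in Col at room temperature and at 6.45 and 6.52 after 24 h, a difference of -0.18 that was not called (limma adjusted p = 0.0949). In C24 it stood at 7.72 and 7.54 at room temperature, 6.88 and 6.77 after 3 h, and 6.15 and 6.03 after 24 h. It fell by 0.80 at 3 h (limma adjusted p = 1.43e-05) and by 1.54 at 24 h (limma adjusted p = 4.03e-08), so no rise at 3 h like that of CML38 was seen. Its C24 room temperature level was above that of Col by 0.96 (limma adjusted p = 2.14e-06). CML41 (AT3G50770), a sensor known from the plasmodesmata that join plant cells, was higher in C24 than in Col at room temperature by 1.40 (limma adjusted p = 3.41e-07) and after 24 h of cold by 0.97 (limma adjusted p = 1.05e-05). In C24 it was at 6.24, 6.40 and 6.18 and not called under cold. Its rise in Col of 0.37 (limma adjusted p = 0.00869) was lost when Col room temperature replicate 2 or Col 24 h replicate 2 was omitted, at a limma adjusted p of 0.0748 or 0.085.

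Among the 7 other sensors in Col after 24 h, 2 rose (CML37 and CML41), 1 fell (CML43, AT5G44460, by 0.67) and 4 were not called, against 49.1% of all probe sets called (23.2% higher and 25.9% lower). The median of the 7 was -0.10, beside 0.01 for all probe sets. In C24 at 3 h, CML30 alone was called among them, against 45.7% of all probe sets (22.5% higher and 23.2% lower), and the list median was 0.02 beside -0.04. A further quantile normalisation made that 2, as did leaving out C24 3 h replicate 2, and none was called that also differed in the same direction from Col at room temperature. In C24 at 24 h, CML30, CML42 (AT4G20780, -0.46) and CML23 (AT1G66400, -0.33) fell and none rose, against 49.5% of all probe sets (24.1% higher and 25.4% lower), with a median of -0.11 beside -0.02. The same 3 were lower at 24 h than at 3 h in C24, where 44.3% of all probe sets were called (21.7% higher and 22.5% lower). For CML42 that call was lost when C24 3 h replicate 1 or C24 24 h replicate 2 was omitted, at a limma adjusted p of 0.0518 or 0.0607. Among these 7 sensors only CML37 moved at least 2-fold in Col, and only CML30 did so in C24 at 24 h.

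**Figure D3:**
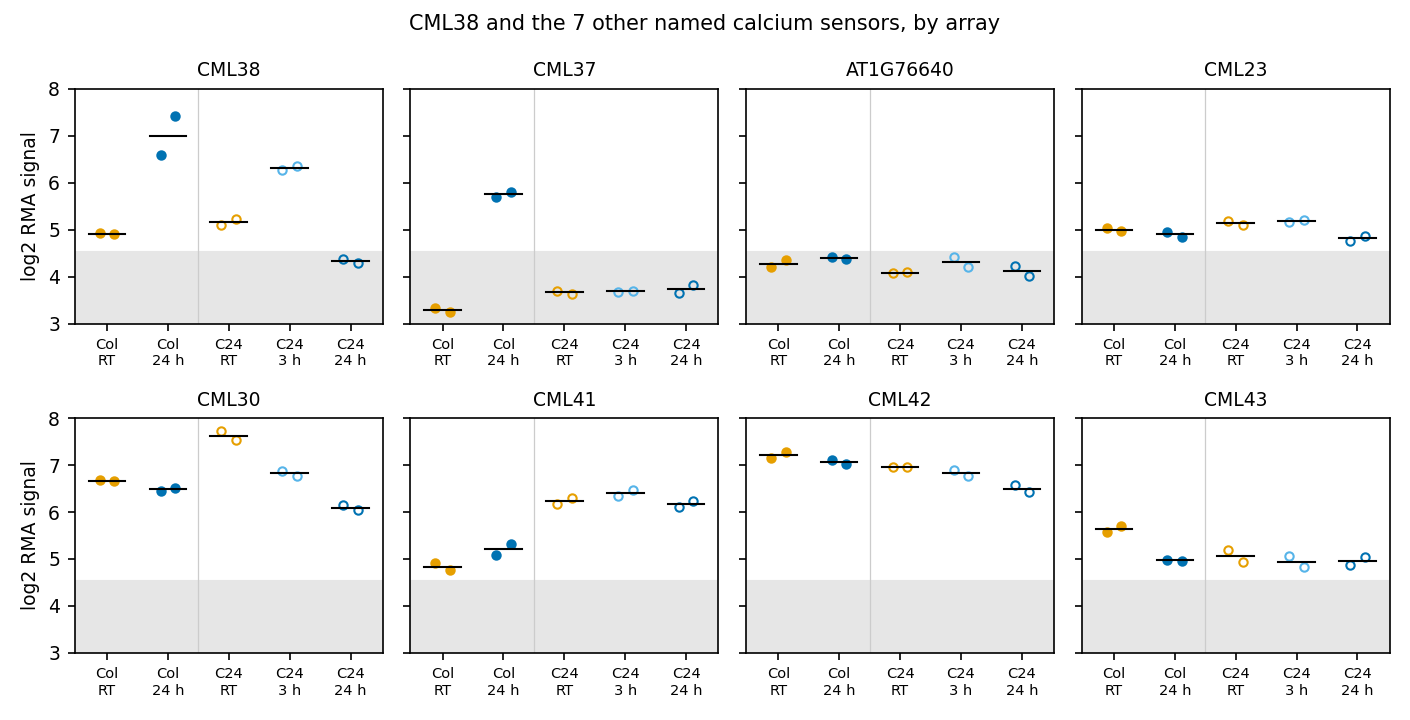
Log2 RMA signal (vertical axis) of CML38 and the 7 other named calcium sensors on each array, by group (horizontal axis, RT for room temperature), with horizontal lines for group means and the background range shaded. CML37 left the shaded band in Col after 24 h alone (5.76), CML30 was highest in C24 at room temperature (7.63), and AT1G76640 stayed in the band.

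Calcium channels come before sensors in the signal. Of the list of channels, pumps, exchangers and annexins, 8 genes had a named probe set, all of them glutamate receptor-like channels, a family known to carry calcium across membranes in wound signalling. In Col after 24 h, 2 rose and 2 fell of the 8, a share of calls near the 49.1% of all probe sets. ATGLR1.2 (AT5G48400) rose by 0.85 (limma adjusted p = 5.97e-06), from 4.47 in the background range to 5.32, and GLR3.3 (AT1G42540) fell by 0.75 (limma adjusted p = 0.000113). GLR3.6 (AT3G51480) fell by 0.40 (limma adjusted p = 0.00312). GLR3.3 and GLR3.6 are the members known for the electrical and calcium waves that follow a wound. The rise of GLR2.7 (AT2G29120, 0.46) in Col was lost when Col room temperature replicate 1 or Col 24 h replicate 2 was omitted, at a limma adjusted p of 0.0734 or 0.0977.

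In C24 at 3 h, 1 of the 8 channel genes rose (GLR3.3) and 2 fell (GLR1.4 and GLR2.8), against 45.7% of all probe sets called. The rise of GLR3.3 (0.31, limma adjusted p = 0.0347) was lost under a further quantile normalisation (limma adjusted p = 0.0561) and under median centring (limma adjusted p = 0.0526). It was also lost when C24 room temperature replicate 1, C24 3 h replicate 1 or C24 3 h replicate 2 was omitted, at a limma adjusted p of 0.177, 0.0542 or 0.18. At 24 h none rose and the same 2 fell, against 49.5% of all probe sets called. GLR2.8 (AT2G29110) lay in the background range on all 10 arrays. GLR1.4 (AT3G07520) was the clearest of these, with -0.69 at 3 h (limma adjusted p = 0.00126) and -0.66 at 24 h (limma adjusted p = 0.00138), from 5.41 at room temperature. Leaving out C24 room temperature replicate 1, C24 3 h replicate 1 or C24 3 h replicate 2 made the 3 h count 1, and leaving out C24 room temperature replicate 1 or either C24 24 h array made the 24 h count 1. At neither time was a called member also called in the same direction against Col at room temperature, where GLR1.4 stood at 4.58. GLR3.3 at 3 h (7.13) lay above Col at room temperature (6.92) uncalled. No channel gene changed 2-fold under cold in either ecotype. Between 24 h and 3 h in C24, GLR3.3 was lower by a difference of -0.49 (limma adjusted p = 0.00281).

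Of the listed early regulators known to respond to touch, wounding or cold together with STZ, 4 had a named probe set and most had none. The counts and medians given for them rest on these 4 alone. ORA47 (AT1G74930) encodes a transcription factor that raises jasmonate synthesis. It stood at 7.83 and 7.53 in C24 at room temperature. On the other 8 arrays it lay between 4.54 and 5.35. WRKY22 (AT4G01250), a factor known from defence signalling, had the same shape, with 6.20 and 6.31 in C24 at room temperature and 4.33 to 4.73 elsewhere, partly in the background range. WRKY53 (AT4G23810), known from leaf senescence, was at 4.90 in C24 at room temperature and in the background range on the other arrays. Like STZ, these 3 genes were higher in C24 than in Col at room temperature, by 2.85, 1.87 and 0.50 (limma adjusted p from 1.44e-08 to 0.000151). Unlike STZ, none of the 3 was at its highest in C24 at 3 h: there the differences were -2.86 for ORA47, -1.79 for WRKY22 and -0.67 for WRKY53 (limma adjusted p from 3.94e-08 to 2.24e-05).

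WRKY6 (AT1G62300), a factor of senescence and phosphate starvation, ran the opposite way in C24. It stood at 5.91 and 5.73 at room temperature, 7.14 and 7.08 after 3 h and 6.65 and 6.58 after 24 h, and in Col at 7.37 and 7.50 and then at 8.24 and 8.48. It rose by 1.29 at 3 h in C24 (limma adjusted p = 9.6e-07), by 0.80 at 24 h (limma adjusted p = 3.09e-05) and by 0.93 in Col (limma adjusted p = 1.15e-05). Of the 4 regulators, 1 rose and 3 fell in C24 at 3 h and again at 24 h, where 45.7% and 49.5% of all probe sets were called. For none of these calls was a difference in the same direction from Col at room temperature called too. WRKY53 and ORA47 lay on that side of Col uncalled, and WRKY6 and WRKY22 on the other side. WRKY53 was at 4.23 at 3 h and 4.21 at 24 h in C24, against 4.40 in Col at room temperature. In Col, WRKY6 and WRKY22 (0.29) rose, with 2 not called, against 49.1% of all probe sets called. The WRKY22 call there was lost when Col room temperature replicate 1 or Col 24 h replicate 2 was omitted, at a limma adjusted p of 0.136 or 0.0965. The list medians were 0.20 in Col at 24 h, -1.23 in C24 at 3 h and -1.16 in C24 at 24 h, beside 0.01, -0.04 and -0.02 for all probe sets.

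**Figure D4:**
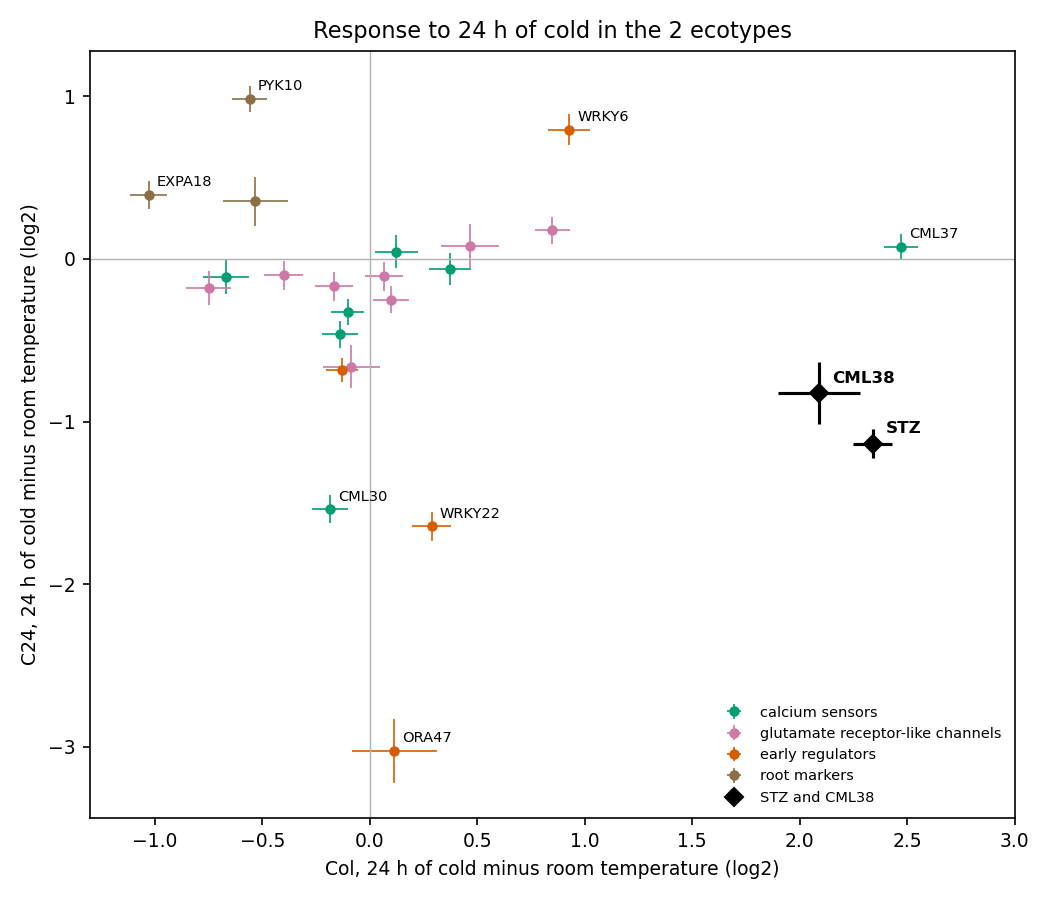
Change after 24 h of cold in Col (horizontal axis, log2) against that in C24 (vertical axis, log2), with SE bars, for STZ and CML38 (diamonds) and the members of 4 gene lists (circles). STZ (2.34 and -1.14) and CML38 (2.09 and -0.83) lie in the lower right, CML37 at 2.47 and 0.08, and ORA47 at 0.11 and -3.03.

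Between the ecotypes, 5 of the 7 other calcium sensors were called at room temperature, 3 higher and 2 lower in C24, against 56% of all probe sets (32.7% higher and 23.4% lower). The higher ones include CML37, which lay in the background range in both groups. The lower ones include CML42, whose call was lost when Col room temperature replicate 2 or either C24 room temperature array was omitted. All 4 early regulators were called at room temperature, 3 higher and 1 lower, the lower one being WRKY6 at -1.62 (limma adjusted p = 8.5e-08). After 24 h of cold 1 sensor was higher and 4 lower in C24, against 49.3% of all probe sets (28.1% higher and 21.2% lower). AT1G76640 (-0.27), 1 of the lower ones after 24 h, lay in the background range on all arrays. Its call was lost under median centring and on the omission of either Col 24 h array, either C24 room temperature array or C24 24 h replicate 2. Among the early regulators WRKY6 alone was called then, at -1.75 (limma adjusted p = 8.25e-08), and a second was called without Col 24 h replicate 1. The difference of the 24 h responses was called for 5 of the 7 sensors, 4 channels of 8 and 3 regulators of 4, against 39.5% of all probe sets (20.4% higher and 19.1% lower). Without C24 room temperature replicate 2 the sensor count was 2, and without C24 24 h replicate 2 it was 3. Without either C24 room temperature array, or without C24 24 h replicate 1, the channel count was 2.

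MAP kinases pass stress signals on to factors such as STZ, which is known as a substrate of this cascade. Of the listed kinases, ATMPK8 (AT1G18150) and ATMPK13 (AT1G07880) had a named probe set. ATMPK13 had group means of 5.96 and 5.23 in Col, at room temperature and 24 h, and of 5.26, 6.15 and 4.97 in C24, at room temperature, 3 h and 24 h. It was lower after cold in Col (-0.72, limma adjusted p = 0.0012) and rose at 3 h in C24 by 0.90 (limma adjusted p = 0.000301). Its C24 3 h arrays stood at 5.92 and 6.39. ATMPK8, a kinase known to be activated by calmodulin after wounding, rose by 0.35 in Col (limma adjusted p = 0.00332). In C24 it rose by 0.25 at 3 h (limma adjusted p = 0.0279) and by 0.56 at 24 h (limma adjusted p = 0.000123). The 3 h call was lost under median centring and with only the compared groups fitted. It was also lost when C24 room temperature replicate 1 or C24 3 h replicate 1 was omitted. SIZ1 (AT5G60410), a SUMO ligase of cold signalling, was not called after 24 h of cold against room temperature by either of its 2 probe sets in either ecotype. In C24, 1 of its 2 probe sets was lower at 3 h than at room temperature (-0.30, limma adjusted p = 0.00737) and higher at 24 h than at 3 h (0.29, limma adjusted p = 0.0105), the latter call being lost when C24 24 h replicate 1 was omitted (limma adjusted p = 0.0662). The other lay in the background range on all 10 arrays.

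Because CML38 also responds to low oxygen, the 2 listed genes of that response with a named probe set were set beside it. Most of that list had no named probe set. PDC2 (AT5G54960), a pyruvate decarboxylase of fermentation, had means of 8.49 and 10.09 in Col, at room temperature and 24 h, and of 9.52, 10.10 and 9.95 in C24, at room temperature, 3 h and 24 h. It rose in Col by 1.60 (limma adjusted p = 5.6e-08), at 3 h in C24 by 0.58 (limma adjusted p = 0.000207) and at 24 h by 0.43 (limma adjusted p = 0.00133). Between 24 h and 3 h in C24 it was not called (-0.15, limma adjusted p = 0.201), where CML38 differed by -1.98. AT3G10040 (HRA1 in RefSeq), which attenuates the low-oxygen response, lay in the background range on all arrays but 1.

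Root markers were followed because CML38 is known from roots. PYK10 (AT3G09260), a glucosidase of root ER bodies, was at 12.81 and 12.25 in Col, at room temperature and 24 h, and at 10.61, 12.53 and 11.59 in C24, at room temperature, 3 h and 24 h. The 3 root markers fell in Col at 24 h, where CML38 was higher and 25.9% of all probe sets fell. They rose in C24 at 3 h, where CML38 was higher too and 22.5% of all probe sets rose. In C24 at 24 h, PYK10 (0.98, limma adjusted p = 1.16e-06) and EXPA18 (0.39, limma adjusted p = 0.00226) were higher than at room temperature. The other marker was not called. There CML38 had a difference of -0.83 and STZ of -1.14, and 24.1% of all probe sets rose. The call of EXPA7 (AT1G12560) in Col was lost when either replicate 2 array was omitted, at a limma adjusted p of 0.13 (room temperature) or 0.0551 (24 h). Its call at 3 h was lost when C24 room temperature replicate 1 or C24 3 h replicate 2 was omitted, at a limma adjusted p of 0.0653 or 0.0595. At room temperature the 3 markers were lower in C24 than in Col, with a median difference of -2.04, while STZ and CML38 were higher in C24. The part of root RNA in the STZ and CML38 levels was not tested.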

How the data were processed

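Total RNA was hybridised to Affymetrix arrays of 1 colour. Per the submitters' processing notes the authors used GCOS and RMA, without versions, and deposited log2 signals per probe set. No source used here says whether all arrays were normalised together. The fit assumes comparable arrays, and quantile normalisation by RMA would hide a shift shared by most genes. Their number limits the precision.

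After removal of 64 controls, 22746 of the 22810 probe sets were tested without a filter. Names came from the platform annotation where it gives 1 gene (13513 probe sets, 503 with several), and RefSeq (TAIR10.1) gave locus codes for 13436 of them, not for 77. Groups follow the sample titles. A linear model of 5 group means over 10 arrays was fitted with limma 3.58.1 in R 4.3.3 (lmFit, eBayes), since 2 arrays a group need a pooled spread. In each of 7 comparisons, p-values were adjusted by the Benjamini-Hochberg method over all probe sets tested, and an adjusted p below 0.05 is a call. They measure the spread between these arrays only.

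STZ, CML38 and the gene lists were chosen with earlier results of these data known. Named were these 2 genes, the 5 likest profiles each and near relatives. Of each list, the 3 largest called changes each way were named, or all members where at most 6 had a named probe set. The lists of calcium-dependent kinases and of other C2H2 zinc fingers had 0 genes with a named probe set. Probe sets for such genes without a single name in the annotation would have been missed. On simulated arrays with 200 changed probe sets of 22746, the 6 group comparisons recovered 91 to 99% of log2 changes of 1. They made 6 to 10 false calls. The difference of responses recovered 83% with 4 false calls. Far fewer probe sets changed there than were called in the data, and the simulated noise was independent. These rates need not hold for the calls above, or for log2 changes below 1. Alternatives left out single arrays, 4658 dim probe sets or the groups not compared, blocked on the replicate number, normalised by quantiles again, centred arrays on medians, let the robust prior follow intensity, or asked for 2-fold changes. A planned search of promoter motifs was not run here.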

Additional observations from a re-analysis of the deposited data

Results flagged for a closer look

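The responses to 24 h of cold had opposite signs in the ecotypes for STZ and CML38: every Col cold array lay above, and every C24 24 h array below, the room temperature arrays of its ecotype. The difference of responses, C24 minus Col, was -3.48 for STZ and -2.92 for CML38, and it was not tested because the genes were chosen for it.

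For 18 of the 32 other listed genes with a named probe set, the same difference was past the threshold by limma, each at an adjusted p below 0.05, against 39.5% of all probe sets called. Among calcium sensors it was -2.39 for CML37, -1.35 for CML30, -0.43 for CML41, -0.33 for CML42 and 0.56 for CML43. Among glutamate receptor-like channels it was -0.67 for ATGLR1.2, -0.58 for GLR1.4, -0.35 for GLR2.8, which lies in the background range on all arrays, and 0.57 for GLR3.3. Among early regulators it was -3.14 for ORA47, -1.93 for WRKY22 and -0.56 for WRKY53. PDC2 of fermentation had -1.17. Root markers had 1.54 (PYK10), 1.42 (EXPA18) and 0.89 (EXPA7), and the leaf markers PSAN and FMA (FAMA) had -0.46 and -0.59. Of these, CML41, CML42, CML43, GLR1.4 and GLR2.8 lost the call when single arrays were left out.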

How the results depend on the processing

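None of the 14 differences of STZ and CML38 changed direction under another quantile normalisation or median centring. The omission of any array could not reverse them, since the arrays of the groups compared did not overlap. The replicate block could not change them either, for the reason given below. The omissions moved STZ in C24 between 0.65 and 0.85 at 3 h and between -1.99 and -1.78 for 24 h against 3 h. They moved CML38 between 1.68 and 2.50 in Col, between -3.08 and -2.26 for C24 against Col after 24 h, and between -3.33 and -2.51 for the difference of responses. In the order Col 24 h, C24 3 h, C24 24 h, C24 24 h against 3 h, ecotypes at room temperature, ecotypes at 24 h and difference of responses, a 2-fold threshold left 1, 0, 1, 0, 1, 1 and 2 calcium sensors of 3, 1, 3, 3, 5, 5 and 5, and 0, 0, 0, 0, 0, 1 and 0 channels of 4, 3, 2, 2, 4, 5 and 4. It left 0 early regulators of 2 in Col, 2 of 4 in C24 at 24 h and 0 of 1 for 24 h against 3 h. Further quantile normalisation gave 2 sensors at 3 h, and without dim probe sets 1 channel was called in C24 at 24 h. A further requirement, chosen after the data were seen, was a call in the same direction for C24 cold against Col at room temperature. It left 0 sensors and 0 channels at 3 h, 0 channels at 24 h, and 0 of 4 early regulators at either time. With single arrays left out, sensor counts ran from 1 to 2 at 3 h and from 2 to 5 for the difference of responses. Channel counts ran from 1 to 3 at 3 h, 1 to 2 at 24 h, 1 to 2 for 24 h against 3 h and 2 to 4 for the difference of responses. Early regulator counts ran from 1 to 3 in Col and 1 to 2 between ecotypes at 24 h. Calls of single listed genes were followed under every alternative that tested the gene, other than the 2-fold threshold and the comparison with Col at room temperature. Of 129 such calls, 96 held and 33 were lost in at least 1, with no sign reversed. The labels do not say that replicate numbers pair arrays, and deviations of same-numbered arrays correlated between -0.12 and 0.12 over 10 pairs of groups. Every group holds both replicate numbers, so a replicate block could not change a difference (2.34 for STZ and 2.09 for CML38 in Col), only its SE. The block removed 1 call, that of the difference of responses for CML42 (limma adjusted p = 0.0507). The causes of these shifts were not tested. Signals in the background range, such as CML38 in C24 at 24 h, limit how far down a change can be read.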

Other observations

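Most of the named probe sets with the widest gaps between the Col 24 h arrays were plastid-encoded. Of 69 plastid-encoded probe sets with 1 gene, 62 were higher on replicate 2, with a median difference of 0.70, beside 0.00145 over all 22746 probe sets. The widest gap was that of atpI, a subunit of the plastid ATP synthase, at 5.35 and 7.56. Only 5 named nuclear probe sets had gaps as wide as that of CML38 (0.82, itself included). The others were TPLATE (AT3G01780), an endocytosis gene, at 0.88, and AT4G19530, AT3G56160 and AT1G50140. ORA47, at 4.54 on replicate 1 and 5.35 on replicate 2, came close to that gap. These genes were chosen after their values were seen, and no test was made.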
